A study of Procambarus clarkii with 12 samples.

Results

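In the hepatopancreas of male red swamp crayfish (Procambarus clarkii), 167 of 176325 gene clusters were abundant on average and yet wholly without counts in at least 1 library while another library of the same group held them at a high level. They were chosen on CPM (a cluster's count divided by the sum of its library's counts, times 1000000, that is, counts per 1000000 counts). A cluster was taken when its mean over the 12 libraries was from 50 to under 1000 CPM and when, in at least 1 of the 4 groups, 1 library had a count of 0 and another had 50 CPM or more. In this range of mean CPM there were 1934 clusters, so the 167 made up 8.63% of them, and the other 1767 clusters of the range are the ones they are set beside here. The choice used the measured spread within groups, so that spread is given below as a description and without a test.

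RNA sequencing was done on hepatopancreas taken from males after 72 h without added cadmium (Control, 0 mg/L) or with cadmium (Cd) at 2, 5 or 10 mg/L, named Cd2, Cd5 and Cd10, with 3 libraries in each group. The labels name no strain or age, and do not state how many animals went into a library. The p-values therefore rest on the spread among these libraries alone. The library totals ran from 15835744 to 21653867 estimated counts, and a count of 0 allows up to 3 counts, which is 0.139 to 0.189 CPM depending on the library. Such limits cover counting error only.

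The hepatopancreas is the digestive and storage gland of crustaceans; it secretes digestive enzymes, takes up nutrients and stores lipid and metals, and it is where much of the cadmium that reaches a crayfish is held and bound. Where transcripts are assembled from the reads themselves, those that share reads are commonly grouped into clusters that stand in for genes. Reads that match several such sequences are shared out among them by a statistical estimate, and counts are then no longer whole numbers. No gene name, protein or sequence stands beside the identifiers, and 0 of them were found in RefSeq's gene table of the species, so no function, cell type marker or sequence can be given for any cluster. For that reason the tissue label could not be checked against its markers. Clusters are therefore called by their rank among the 167 by mean CPM over the 12 libraries (rank 1 is the highest), with 4 identifiers printed.

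The zeros were spread over all 4 groups. The choice was met in Control by 75 clusters, in Cd2 by 65, in Cd5 by 80 and in Cd10 by 60. It was met in 1 group by 81 clusters, in 2 groups by 63, in 3 groups by 19 and in all 4 by 4. The number of the 167 clusters at 0 was 34, 35 and 36 in the Control libraries, 38, 45 and 32 in Cd2, 48, 43 and 47 in Cd5, and 33, 23 and 36 in Cd10. No library held most of them, and each library was the sole one at 0 for between 2 and 9 clusters. Of the other 1767 clusters, 3 to 9 were at 0 in a library. The 167 together took 1.87% ± 0.102 of all counts in Control, 2.05% ± 0.188 in Cd2, 2.15% ± 0.289 in Cd5 and 2.13% ± 0.239 in Cd10 (SD, n = 3 each).

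**Figure D1:**
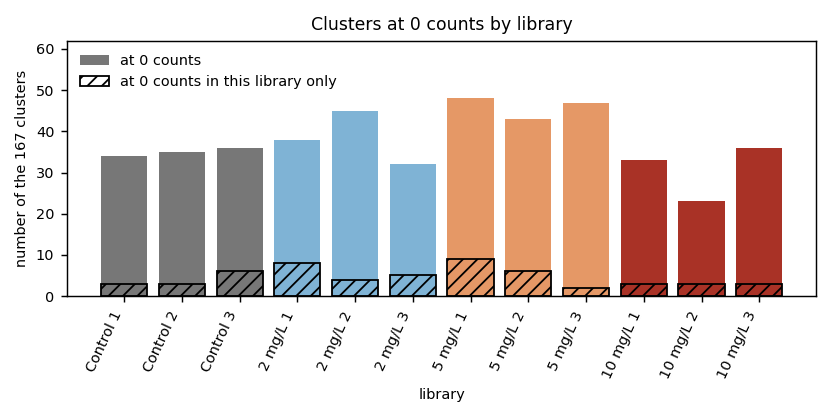
Bars give the number of the 167 clusters with 0 counts in each library (vertical axis), with libraries ordered by dose along the horizontal axis; the hatched part counts clusters at 0 in that library and no other. Every library had between 23 (Cd10 replicate 2) and 48 (Cd5 replicate 1) of the clusters at 0.

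Values of the 167 were mostly either high or at 0. Of their 2004 single-library values, 450 (22.5%) were 0, 148 (7.39%) were above 0 and under 1 CPM, 98 (4.89%) lay from 1 to under 10 CPM, 200 (9.98%) from 10 to under 50 CPM, and 1108 (55.3%) at 50 CPM or more. In the other 1767 clusters 68 of 21204 values (0.321%) were 0, 166 (0.783%) were above 0 and under 1 CPM, and 17119 (80.7%) were at 50 CPM or more. Set against the floor of 3 counts in the library at 0, the highest library of the same group was at least 298-fold higher in every one of the 167, with a median bound of 1317-fold and the highest bound, 21883-fold, in the cluster ranked 7. These are values the choice used.

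**Figure D2:**
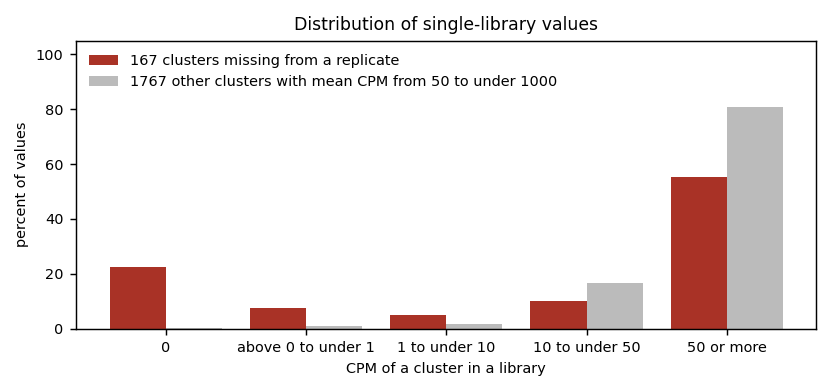
Bars give the percent of single-library values (vertical axis) that fall in each class of CPM (horizontal axis), for the 167 clusters and for the other 1767 clusters of the same range of mean CPM. The 167 have 22.5% of values at 0 and 4.89% between 1 and 10 CPM, while the other clusters have 80.7% of values at 50 CPM or more.

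Near the limits of the choice, the 2 lowest means inside it were both 50.7 CPM, and the nearest means below it, in clusters that met the rest of the choice, were 48.0 and 47.6 CPM. At the upper end the 2 highest means inside were 983 and 631 CPM, and 1 cluster that met the rest lay above, at 1379 CPM. The lowest high libraries inside held 56.5 and 57.2 CPM, and the nearest outside held 49.3 and 49.0 CPM. A further 52 clusters of the range had a library above 0 and under 1 CPM, none at 0, beside one of the same group at 50 CPM or more.

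The cluster with the highest mean, Cluster-27942.67421 (rank 1, mean 983 CPM), had 699, 1.13 and 0 CPM in the Control libraries, 1362, 2224 and 2199 CPM in Cd2, 0.578, 2359.7 and 0.693 CPM in Cd5, and 1153, 1789.7 and 1.37 CPM in Cd10. Its 7 high libraries and 5 low libraries do not follow the dose: 1 of 3 was high in Control and in Cd5, 3 of 3 in Cd2 and 2 of 3 in Cd10. Cluster-27942.70439 (rank 3, mean 545 CPM) had 0.602, 558 and 586 CPM in Control, 592, 1667 and 482 CPM in Cd2, 392, 0 and 0.0505 CPM in Cd5, and 1064, 443 and 757 CPM in Cd10. Low values were found in 1 Control library and 2 Cd5 libraries, and the Cd2 and Cd10 libraries overlapped the 2 higher Control libraries.

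The 2 clusters of highest mean that were lower on average in cadmium were, like the 2 above, each at 0 in 1 library. Cluster-27942.66873 (rank 2, mean 631 CPM) had 1368, 175 and 379 CPM in Control, 0, 436 and 870.0 CPM in Cd2, 653, 1045 and 930.2 CPM in Cd5, and 580.4, 628 and 509 CPM in Cd10. Outside a single Cd2 library at 0, every library was at 175 CPM or more, and each cadmium group overlapped Control. Cluster-27942.66754 (rank 6, mean 383 CPM) had 498, 744 and 1324 CPM in Control, 321, 6.07 and 241 CPM in Cd2, 341, 341 and 13.7 CPM in Cd5, and 249, 513 and 0 CPM in Cd10. All Cd2 and Cd5 libraries of this cluster lay under the lowest Control library, and 1 Cd10 library lay above it.

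**Figure D3:**
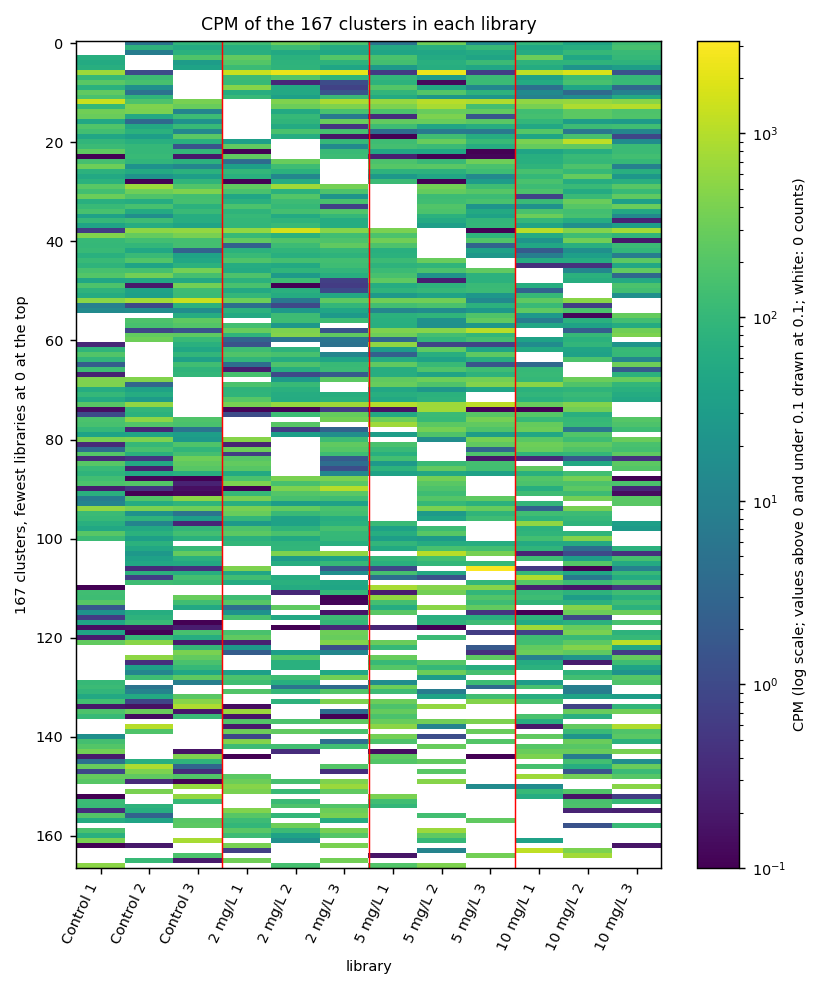
Each row is 1 of the 167 clusters, ordered from the fewest libraries at 0 (top) to the most (bottom), and each column is 1 library in order of dose; colour gives CPM on a log scale and white marks 0 counts. White cells occur in every library, 23 to 48 per column, and the pattern differs between rows.

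The number of libraries at 0 varied widely among the 167. There were 55 clusters at 0 in 1 library, 46 in 2, 21 in 3, 15 in 4, 13 in 5, and 17 in 6 to 8. Where 1 library was at 0, 8 clusters had 50 CPM or more in each of the other 11 libraries. The cluster ranked 96 was one of these, with 78.0, 56.3 and 76.7 CPM in Control, 95.5, 75.9 and 0 CPM in Cd2, 83.2, 77.0 and 126 CPM in Cd5, and 159, 106 and 70.3 CPM in Cd10. Its other 11 libraries spanned less than a 3-fold range. At the other end, the cluster ranked 7 had 0, 0.361 and 0.434 CPM in Control, 425, 0 and 1.56 CPM in Cd2, 0.897, 0 and 3032 CPM in Cd5, and 0.555, 0.0220 and 9.52 CPM in Cd10, so that 2 libraries of different doses carried nearly all of its counts.

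In 19 clusters 1 or more whole groups were at 0, and the choice was met in another group. Controls were at 0 in all 3 libraries for 2 clusters, Cd2 for 4, Cd5 for 7 and Cd10 for 7. The cluster ranked 38 had 0, 0 and 0 CPM in Control, 201, 171 and 239.9 CPM in Cd2, 287, 338 and 416 CPM in Cd5, and 64.9, 0 and 0 CPM in Cd10. All 6 Cd2 and Cd5 libraries lay above all 3 controls, and the mean was at least 4166-fold higher in Cd2 and at least 7076-fold higher in Cd5 than the floor of 3 counts over the Control group. The cluster ranked 41 also had 0 in the 3 controls, and had 0.688, 0 and 0 CPM in Cd2, 0, 10.3 and 0 CPM in Cd5, and 1196, 413 and 0 CPM in Cd10. The cluster ranked 94, with 0.155, 0.160 and 0.230 CPM in Control and at most 0.329 CPM in Cd2 and Cd5, had 725, 287 and 0 CPM in Cd10. In both clusters the same 2 Cd10 libraries were high and Cd10 replicate 3 was at 0, and their correlation over the 12 libraries was r = 0.96 (Pearson, log2(CPM + 1), n = 12 libraries).

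In other clusters a dose group was at 0 and the controls were not. The cluster ranked 24 had 279.7, 258 and 192 CPM in Control, 231, 0 and 0 CPM in Cd2, 0, 0 and 0 CPM in Cd5, and 698, 347 and 205 CPM in Cd10. Its Control mean was at least 4986-fold higher than the floor over the Cd5 group, and the Cd10 libraries overlapped the controls. The cluster ranked 157 had 53.2, 53.6 and 224 CPM in Control, 0 in the 3 Cd2 libraries, 0, 41.0 and 132 CPM in Cd5, and 65.2, 41.8 and 32.0 CPM in Cd10. The cluster ranked 33 had its highest values in Cd5, with 0.0473, 0 and 0 CPM in Control, 0, 59.1 and 43.9 CPM in Cd2, 812, 485 and 485 CPM in Cd5, and 0.252, 0.187 and 0.475 CPM in Cd10. All 3 of its Cd5 libraries lay above the other 9. In bulk tissue, fewer cells that make a transcript and less of it per cell cannot be told apart. Nor was it tested whether such zeros come from how reads were shared out among clusters.

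None of the 167 that could be tested was called as changed between a cadmium dose and Control by the main test (edgeR's quasi-likelihood test fitted over all 57151 clusters that passed the filter on low counts, Benjamini-Hochberg adjusted p under 0.05). The filter passed 165 of the 167. Counts called were 0 of 165 at Cd2 beside 0.00875% of all clusters tested, 0 at Cd5 beside 0% and 0 at Cd10 beside 0.00700%, and 0 over the 4 groups together beside 0.0175%. At an unadjusted p under 0.05 by the same edgeR fit there were 10 (6.06%) at Cd2 beside 6.50% of all clusters, 12 (7.27%) at Cd5 beside 5.51%, 6 (3.64%) at Cd10 beside 11.4%, and 7 (4.24%) over the 4 groups beside 8.15%. limma-voom also called 0 in each comparison. The choice asks for wide spread within a group, which enters these tests, so nothing is read from the counts about the clusters.

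DESeq2 called some of the 167. It gave a p-value to 145 of them, and the shares set beside are of all clusters given one. It called 8 of the 145 at Cd2 (4 higher, 4 lower) beside 2.31%, and 10 at Cd5 (3 higher, 7 lower) beside 1.80%. At Cd10 it called 10 (3 higher, 7 lower) beside 5.87%, and over the 4 groups 2 beside 5.52%. The dose group or the controls were at 0 in all 3 libraries for 3 of the 8 called at Cd2, 7 of the 10 at Cd5 and 8 of the 10 at Cd10. DESeq2 gave no p-value, through its handling of single outlying counts, for 20 of the 165 (12.1%) and for 10 of 1766 other clusters of the range (0.566%). The 3 doses were each set against the same 3 controls, so their counts are not independent of each other. The zeros and the spread that the choice used enter these calls, so nothing is read from them about the clusters.

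Fitted changes came with wide errors. By edgeR's quasi-likelihood test, the log2 fold change of Cluster-27942.67421 was 3.19 (SE 3.23) at Cd2, 1.82 (SE 3.06) at Cd5 and 2.05 (SE 3.08, adjusted p = 0.911) at Cd10. Cluster-27942.70439 had a log2 fold change of 1.10 (SE 2.49), -1.62 (SE 2.52) and 0.83 (SE 2.48) at the 3 doses in order, by the same fit. Cluster-27942.66754 had -2.33 (SE 2.02), -1.97 (SE 1.99) and -2.00 (SE 1.99, edgeR adjusted p = 0.805 at Cd10). Each of these changes was smaller than 2 of its standard errors (SE). The SE was worked back from the test, as the size of the change divided by the square root of the test's F value. It therefore restates the test and is no separate measure of error. Single libraries moved the changes of Cluster-27942.67421 and Cluster-27942.70439 widely, that of the first at Cd5 also in direction. That of Cluster-27942.66754, picked for a lower mean in cadmium, stayed below 0 at each dose with any 1 library left out. For Cluster-27942.67421 the log2 fold change at Cd5 was -8.39 without Cd5 replicate 2 and 10.17 without Control replicate 1, and without that control it was 11.55 at Cd2 and 10.38 at Cd10. For Cluster-27942.70439 it was -13.76 at Cd5 without Cd5 replicate 1, 0.23 at Cd10 without Control replicate 1 and 0.29 at Cd2 without Cd2 replicate 2. Where the libraries left in a group are at or near 0, such a fitted value is no bound. For Cluster-27942.66873 the log2 fold change at Cd10 was -0.12 (SE 1.67), and without Control replicate 1, the library at 1368 CPM, it was 0.87.

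The smallest edgeR adjusted p among the 165 was 0.699 at Cd2, 0.344 at Cd5 and 0.371 at Cd10, and 0.232 over the 4 groups. The cluster ranked 33 gave the smallest at Cd5 and over the 4 groups, and the cluster ranked 38 the smallest at Cd10. With 1 library left out, a few clusters were called by the same edgeR test; the filter then also passed more clusters, 65147 to 69389 in all and 166 or 167 of the 167. Without Cd2 replicate 1, where the cluster ranked 24 had its 1 high Cd2 value and the cluster ranked 33 was at 0, both were called at Cd2 (beside 0.0190% of all clusters), at Cd5 (0.0102%) and over the 4 groups (0.0102%). Without Cd10 replicate 3, the library at 0 in both, the clusters ranked 94 and 152 were called at Cd10 (beside 0.357%) and over the 4 groups (0.256%). The cluster ranked 94 had not passed the filter with all 12 libraries, so it was not tested there. Without Cd2 replicate 2 the cluster ranked 15 was called at Cd2 (0.0232%), and without Cd10 replicate 1 the cluster ranked 38 was called at Cd2 (0.00903%), at Cd5 (0.00151%) and over the 4 groups (0.00151%). In each case the library left out was the high or the missing one of a group where the cluster met the choice. These calls thus draw on values the choice used, and nothing is read from them about the clusters.

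Counted by ranks of the libraries alone, 17 of the 165 (10.3%) had all 3 Cd2 libraries above or all 3 below the controls (11 higher, 6 lower) beside 14.2% of all clusters tested. At Cd5 there were 21 (12.7%; 12 higher, 9 lower) beside 11.7%, and at Cd10 there were 9 (5.45%; 4 higher, 5 lower) beside 15.8%. The mean over the 9 cadmium libraries was above the Control mean in 102 of the 167 (61.1%) and in 1060 of the other 1767 clusters (60.0%). The median fitted log2 fold change of the 165 was -0.11 at Cd2, 0.00 at Cd5 and 0.11 at Cd10, beside medians over all clusters tested of -0.02, 0.04 and 0.00. The median size of the log2 fold change, its sign left out, was 1.20, 0.97 and 1.04 in the 165. It was 0.66, 0.63 and 0.83 in all clusters tested, and 0.36, 0.38 and 0.53 in 1766 other clusters of the range. The 165 had a median biological coefficient of variation in the fit, a measure of spread the choice used, of 1.84. It was 0.905 for all clusters tested and 0.514 for those 1766. The wide spread within a group that the choice asks for also enters the sizes of change and the ranks of libraries. Nothing is read from these about a response to cadmium.

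The 167 showed 104 different patterns of zeros over the 12 libraries. A pattern of its own was held by 79 clusters, and the other 88 shared 25 patterns. The commonest was a zero in Cd5 replicate 1 alone, in 9 clusters, and next a zero in Cd2 replicate 1 alone, in 8. Libraries of the same group were both at 0 for a median of 10 clusters (6 to 21 over the 12 pairs), and libraries of different groups for a median of 9 (4 to 24 over the 54 pairs). The most shared zeros, 24, were between Cd2 replicate 2 and Cd5 replicate 2, being 53.3% of the zeros of the Cd2 library and 55.8% of those of the Cd5 library.

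Correlation over the 12 libraries joined 10 of the 167 into 3 sets at r of 0.98 or more (Pearson, log2(CPM + 1)), from 11 of 13861 pairs; all pairs share the same 12 libraries, and this is a description. The first set held the clusters ranked 1, 28, 69 and 99, with r from 0.986 to 0.998 between them. The cluster ranked 28 had 134, 0.118 and 0.0195 CPM in Control, 161, 391 and 394 CPM in Cd2, 0, 345 and 0 CPM in Cd5, and 197, 370.0 and 0.102 CPM in Cd10. The cluster ranked 69 had 199, 0 and 0 CPM in Control, 122, 139 and 132 CPM in Cd2, 0, 284 and 0 CPM in Cd5, and 207, 217 and 0 CPM in Cd10. In all 4 clusters of the set the same 7 libraries were high, namely Control replicate 1, the 3 of Cd2, Cd5 replicate 2 and Cd10 replicates 1 and 2, and the same 5 were at 0 or under 2 CPM.

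The second set held the clusters ranked 42, 45, 90 and 142, with r from 0.979 to 0.998. The cluster ranked 42 had 219, 0.341 and 0.0513 CPM in Control, 308, 148 and 428 CPM in Cd2, 0, 495 and 0 CPM in Cd5, and 0 in the 3 Cd10 libraries. The cluster ranked 45 had 166, 0 and 0 CPM in Control, 229, 118 and 376 CPM in Cd2, 0, 682 and 0 CPM in Cd5, and 0 in Cd10. Its 5 high libraries were among the 7 of the first set, and the other 2 of those 7, Cd10 replicates 1 and 2, were at 0 here. Lengths within a set differed, as implied by each cluster's count and FPKM (fragments per kilobase of length and per 1000000 fragments). They ran from 70.6 to 3028 bases in the first set and from 1170 to 3010 bases in the second. An implied length need not be that of the assembled sequence. The lowest was 64.7 bases among the 167 and 1.84 bases among the other 1767. The third set was a pair, the clusters ranked 113 and 117 (r = 0.996), which were high in Cd2 replicates 1 and 3, lower in Control replicate 2, and under 1 CPM elsewhere.

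**Figure D4:**
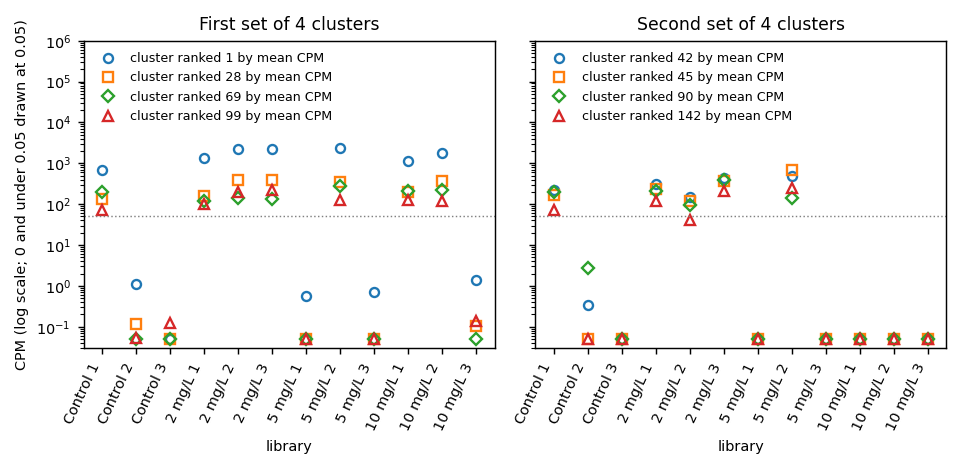
CPM on a log scale (vertical axis; 0 and values under 0.05 are drawn at 0.05) of the 4 clusters of the first set (left) and of the second set (right) in each of the 12 libraries (horizontal axis), with a dotted line at 50 CPM. Control replicate 1, the 3 Cd2 libraries and Cd5 replicate 2 are high in both sets, and Cd10 replicates 1 and 2 are high in the first set and at 0 in the second.

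The clusters were also set beside others of the files by number and by length, which the choice did not use. Identifiers hold 2 numbers, and the first, 27942, was shared by all 167 and by all of the other 1767 clusters of the range. A near-numbered cluster is here one whose second number lay within 10 and whose implied length lay within 2%, with a mean of 1 CPM or more; this definition was chosen after values had been seen. There was at least 1 for 46 of the 167 (27.5%) and for 197 of the other 1767 clusters (11.1%). These made 57 different pairs, 5 of them between 2 of the 167, and 11 of the 46 clusters had more than 1 near-numbered cluster. Over the 57 pairs the median correlation over the 12 libraries was -0.16, and 16 pairs (28.1%) had r below -0.5 while 3 (5.26%) had r above 0.5. Over the 208 different pairs of the other clusters the median was 0.05, with 20 (9.62%) below -0.5 and 33 (15.9%) above 0.5. The choice used the values at 0 of the 167, and these correlations were not tested.

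In several pairs, described here because of it, the near-numbered cluster was present in the very libraries where the abundant one was missing. The cluster ranked 69 had a near-numbered cluster 3 numbers away (implied lengths 3028 and 3040 bases; r = -0.99) with 0, 43.3 and 100.3 CPM in Control, 0, 0 and 0 CPM in Cd2, 56.5, 0 and 144 CPM in Cd5, and 0, 0 and 134 CPM in Cd10. No library held both at 10 CPM or more, and every library held 1 of them at that level. The same near-numbered cluster was the most negatively correlated with Cluster-27942.67421 of the 7375 clusters with a mean of 10 CPM or more (r = -0.99). A second near-numbered cluster, 1 number away, ran the other way (r = 0.66) and was at 0 in all 5 libraries where the cluster ranked 69 was at 0.

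Further pairs divided the libraries in the same way. The cluster ranked 121 had 102, 60.6 and 0 CPM in Control, 88.9, 61.7 and 67.0 CPM in Cd2, 65.6, 75.7 and 0 CPM in Cd5, and 93.8, 114 and 59.7 CPM in Cd10. Its near-numbered cluster, 7 numbers away, had 66.0 CPM in Control replicate 3 and 91.9 CPM in Cd5 replicate 3, where the first was at 0, and at most 3.75 CPM elsewhere (r = -0.96). The cluster ranked 166 was at 0 in Cd2 replicate 2 and Cd10 replicate 3, and its near-numbered cluster, 1 number away, had 52.0 and 49.7 CPM in these and 0 in the other 10 libraries. The cluster ranked 145 had 0 and 7.85 CPM in Control replicates 1 and 2 and 44.1 to 115 CPM in the rest, and a near-numbered cluster, 2 numbers away, had 67.1 and 50.7 CPM in those controls and 0 in the other 10 (r = -0.92). It had 2 further near-numbered clusters, with r = 0.05 and r = 0.30, and both were at 0 in those 2 controls.

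Other pairs overlapped in part. The cluster ranked 124 had 103, 85.0 and 35.4 CPM in Control, 96.4, 39.5 and 64.4 CPM in Cd2, 0, 42.9 and 129.9 CPM in Cd5, and 86.1, 98.8 and 0 CPM in Cd10. Its near-numbered cluster, 1 number away, had 0.526, 0 and 50.9 CPM in Control, 0, 72.1 and 74.8 CPM in Cd2, 73.4, 60.7 and 0 CPM in Cd5, and 0, 0 and 116 CPM in Cd10. Both were present in 4 libraries at 10 CPM or more, and their sum lay between 73.4 and 139 CPM.

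Over all pairs, near-numbered clusters were present at close shares in the missing and in the high libraries. Each of the 46 clusters was set beside each of its near-numbered clusters, which makes 62 settings since pairs of 2 of the 167 count from both sides. Among the 189 library values at 0 in these, the near-numbered cluster was at 10 CPM or more in 74 (39.2%). Among the 381 values where the abundant cluster was at 50 CPM or more, it was at that level in 125 (32.8%). In 25 of the 46 clusters some near-numbered cluster was at 10 CPM or more in every library where the abundant one was at 0. Some of these near-numbered clusters were at that level in all 12 libraries, as for the clusters ranked 2, 20, 37, 116, 131 and 147. There the count is met wherever the zeros fall. Whether the deposited counts divide reads between such pairs was not tested, since no sequence was used here.

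**Figure D5:**
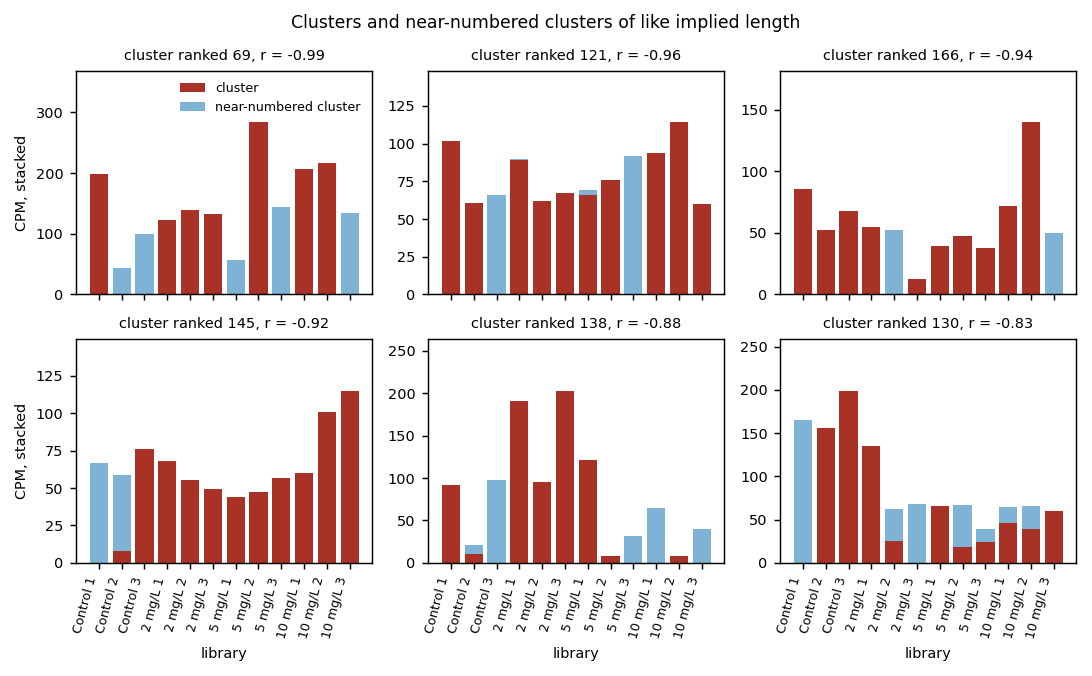
Stacked bars give CPM (vertical axis) in the 12 libraries (horizontal axis) for the 6 clusters of the 167 with the most negative correlations (red) and the near-numbered cluster that gave it on top (blue). For the cluster ranked 69 (r = -0.99) and the cluster ranked 121 (r = -0.96) blue bars stand where red ones are missing.

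In length and in the form of their counts the 167 also stood beside the rest of the range. Their median implied length was 1826 bases (quartiles 1012 and 2995), beside 1313 bases (quartiles 501 and 2482) in the other 1767 clusters, and the 2 ranges of the middle values overlap widely. Counts were whole numbers, to within 1e-09, for 45 of the 1108 values at 50 CPM or more (4.06%) of the 167 and for 4707 of 17119 (27.5%) of the others. The next count takes only libraries at 10 CPM or more, a smaller share of values in the 167 than in the others. Between these, the implied length of a cluster differed by more than 1.5-fold in 1 of the 167 (0.599%) and 147 of the others (8.32%). These are counts over clusters of the same 12 libraries and were not tested. The median of mean levels was 92.7 CPM in the 167 and 107.9 CPM in the others, and per length it was 49.98 FPKM in the 167 and 98.9 FPKM in the others.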

How the data were processed

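The estimated counts (Read_count, not whole numbers) and the FPKM values of 12 hepatopancreas libraries were used as the authors deposited them, 1 file per library, with units per the file headers. Which assembler, aligner and counting tool were run is not given in the sources used here. CPM was computed from each file's total of estimated counts, and an implied length was computed from count, total and FPKM. For tests, counts were rounded to whole numbers and fitted with edgeR 4.0.16 (TMM, filterByExpr with a minimum count of 10 and a minimum total of 15, quasi-likelihood test, 1 coefficient per group, all 12 libraries), with Benjamini-Hochberg adjustment over all clusters tested. DESeq2 1.42.0, limma-voom (limma 3.58.1), other scalings, no filter, a replicate block, only the 6 libraries compared and each library left out were alternatives. The scripts were tested on simulated data. For the edgeR test the simulated spread was smaller than that fitted in any of the 165. That run checked the code, and does not show how well changes would be found among these clusters. The clusters, the lists and the neighbour definition were chosen with earlier results of these data known. Identifiers printed are the 2 of highest mean CPM among those higher in cadmium on average and likewise the 2 among those lower; others described were picked after their values were seen, as examples of a pattern.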

Additional observations from a re-analysis of the deposited data

How the results depend on the processing

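The number of clusters chosen was 167, and it was 140 to 219 with other limits on the high or the missing library. It was 167 with TMM scaling (165 shared) and 168 with no upper limit. With FPKM in place of CPM it was 468, of which 80 were among the 167. FPKM divides by length, and in that setting an FPKM of 0 also stood in for a count of 0. The cause of the difference was not tested. With 1 library left out it was 143 to 160. Called clusters stayed at 0 in each comparison by edgeR with DESeq2 size factors, library size alone, no filter and a replicate block (0 called), and by limma-voom; with only the 6 libraries compared they were 0 at each dose, and the 4 groups together were not run. With 1 library left out the counts ran from 0 to 2 at Cd2, at Cd5, at Cd10 and over the 4 groups. DESeq2 called 8 at Cd2, 10 at Cd5, 10 at Cd10 and 2 over the 4 groups; the cause was not tested. The 18 same-number correlations between groups, over all clusters tested, ran from -0.098 to 0.064. They show no pairing by replicate number over these clusters as a whole, but cannot show how the libraries were handled. The log2 fold change of Cluster-27942.66873 at Cd10 was -0.12 and reversed to 0.87 without Control replicate 1 and to 0.26 by limma-voom, with -0.57 to 0.87 over the libraries left out; at Cd2 it was -0.43 and ran from -1.47 to 0.58, reversed without Control replicate 1 and, at 0.16, without Cd2 replicate 1. That of Cluster-27942.67421 at Cd5 was 1.82 and ran from -8.39 (reversed, without Cd5 replicate 2) to 10.17; at Cd2 it ran from 2.60 to 11.55, with 10.09 under the replicate block, and at Cd10 from 1.27 to 10.38. That of Cluster-27942.70439 ran from -13.76 to -1.03 at Cd5, from 0.23 to 1.23 at Cd10 and from 0.29 to 1.52 at Cd2; by limma-voom it was -6.24 at Cd5, 3.58 at Cd10 and 3.71 at Cd2. That of Cluster-27942.66754 was below 0 at each dose in every setting, and it was called in none. With 1 library left out it ran from -2.78 to -1.75 at Cd2, from -2.44 to -1.41 at Cd5 and from -3.05 to -1.45 at Cd10. By limma-voom it was -5.51 at Cd10. The values at Cd2 and Cd5 were added after seeing the data, and the cause of none was tested. Near-numbered clusters were found for 34 to 69 of the 167 under the other definitions, against 46.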
